A study of Mus musculus with 6 samples.

Results

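The miR-379/410 cluster is a run of miRNA hairpins in the imprinted Dlk1-Dio3 domain of mouse chromosome 12. Its members were taken by name, as every deposited miRNA whose name carries 1 of 37 hairpin stems of the cluster. This gave 62 mature miRNAs of the 1300 in the table, 29 from the 5p arm and 33 from the 3p arm of their hairpins. They come from 35 of the 37 stems, and 27 hairpins gave both arms. Mature miR-544 and miR-654 were not analysed here.

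Small RNA was sequenced from whole ovaries of female C57BL/6J mice, in 3 libraries of a normal-pressure group and 3 of a hypobaric hypoxia group. The first group was housed at local altitude, at a pressure of 83.56 kPa and an oxygen pressure of 17.8 kPa. The second was housed in a decompression chamber at 43.12 kPa and 8.1 kPa of oxygen, simulating 6500 m. The study asked how low-pressure hypoxia affects the ovary, and the comparison here is hypobaric hypoxia over normal pressure. The design text states an age of 8 weeks and 15 days of housing for all mice. The sample descriptions instead list ages of 6 to 8 weeks, 15, 16 and 17 days by replicate number, a chamber altitude of 5000 m, and a dark phase of 12, 13 and 14 hours for the normal-pressure libraries against 12 hours for all hypobaric ones. Levonorgestrel and ethinylestradiol, the hormones of a combined contraceptive, are named for both groups, but doses (0.1 and 0.02 mg/kg) are printed only for the hypobaric one, which leaves it unstated whether both were dosed alike. Each group had 15 mice, and it is not stated if a library is 1 mouse or several pooled. What the p-values measure is thus the variation among these libraries, possibly technical in part. Since whole ovary was sequenced, fewer cells of a type and less RNA per cell cannot be told apart.

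The cluster is expressed from the chromosome inherited from the mother, and its hairpins are thought to be cut from long noncoding transcripts that run through the domain. In mice it is best known from placenta, embryo and brain, and pups that lack it on the maternal chromosome adapt poorly to the loss of the placental food supply at birth. Each hairpin can give a 5p and a 3p miRNA, and a miRNA selects its target mRNAs mainly through its seed, bases 2 to 8 from the 5′ end. Members with the same seed can share targets, while the 2 arms of a hairpin generally do not.

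On GRCm38 the 34 hairpins with a position lie between 109709060 and 109743795 of chromosome 12, a span of 34.7 kb that opens with Mir379 and closes with Mir410. In GENCODE vM21, 12 hairpins lie inside Mirg, an annotated lincRNA gene from 109729764 to 109749460. The hairpins of miR-382, miR-134, miR-668, miR-485, miR-377, miR-412, miR-369 and miR-410 are in its exons, and those of miR-154, miR-496a, miR-541 and miR-409 in its introns. The other 22 lie before Mirg and outside other annotated genes.

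RefSeq (GRCm38.p6) held a mature sequence for 59 of the 62 members; the other 3 are miR-376c-3p, miR-485-5p and miR-487b-3p. The sequences below are those of the members with the smallest p in the comparison of levels, in that order, with seeds in capitals, written 5′ to 3′.
miR-410-3p: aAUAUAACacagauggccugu
miR-323-3p: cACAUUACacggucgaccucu
miR-412-5p: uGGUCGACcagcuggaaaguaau
miR-496a-3p: uGAGUAUUacauggccaaucuc
miR-380-5p: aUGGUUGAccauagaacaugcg
miR-379-3p: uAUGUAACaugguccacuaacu
miR-758-3p: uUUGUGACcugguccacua
miR-376b-3p: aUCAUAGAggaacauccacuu
miR-299a-3p: uAUGUGGGacgguaaaccgcuu

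Among these 9, the seeds all differ. Seeds are shared with other members in 2 cases, miR-379-3p with miR-411-3p and miR-299a-3p with miR-299b-3p. The last member of each pair is printed here beside the most abundant members, miR-411-5p and miR-379-5p, so that arms and seeds can be compared.
miR-411-3p: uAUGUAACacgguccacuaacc
miR-299b-3p: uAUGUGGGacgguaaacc
miR-411-5p: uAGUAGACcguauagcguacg
miR-379-5p: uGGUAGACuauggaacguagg

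The last pair of sequences has similar starts, but the seeds AGUAGAC and GGUAGAC are not identical. The seed of miR-379-5p is shared with miR-1193-5p, that of miR-410-5p with miR-494-5p, and that of miR-376b-5p with miR-376c-5p. Reads of miR-299a-3p and miR-299b-3p, which share a stretch of 18 bases, may be assigned to either name, and so may those of miR-376b-5p and miR-376c-5p, also with 18. A shared stretch of 16 bases likewise makes the split between miR-300-3p and miR-381-3p uncertain.

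The hairpins at the ends of the cluster are shown because both arms of Mir379 were measured deeply and Mir410 gave the member with the smallest p. Capitals mark the mature arms. Mir379 spans chr12:109709060-109709125 and Mir410 chr12:109743715-109743795, both on the plus strand.
Mir379: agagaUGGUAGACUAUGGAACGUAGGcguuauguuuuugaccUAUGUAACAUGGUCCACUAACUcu
Mir410: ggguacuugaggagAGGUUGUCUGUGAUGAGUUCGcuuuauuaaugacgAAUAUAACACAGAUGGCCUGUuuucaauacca

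Levels are given as RPM, reads scaled to 1000000 of the authors' library total, which lay between 20800777 and 22559146 reads. The miRNA table held 30.37% to 36.35% of them at normal pressure and 38.03% to 41.06% under hypobaric hypoxia. The RPM summed over all miRNAs were therefore higher in every hypobaric library than in any normal-pressure one. A single read is worth 0.0443 to 0.0481 RPM, and a count of 0 allows a level of up to 3 reads, 0.133 to 0.144 RPM, for counting error only. The labelled tissue was checked with miR-202, a miRNA of the gonads, whose arms summed to 998 to 1349 RPM at normal pressure and 2191 to 3462 RPM under hypobaric hypoxia. The second normal-pressure library and the third hypobaric one are those said below to stand apart, a choice made after seeing the data. Over 475 tested miRNAs their deviations from their own group means correlated at r = 0.556. This was the highest value among pairs across the groups, the others being -0.469 to 0.346. It is a description only, of 2 libraries that deviate alike, and does not show that either is faulty. Each result below is also given without them where a call changes.

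The members were a small and uneven share of the ovarian miRNAs. They summed to 3462, 2521 and 2815 RPM at normal pressure and to 3601, 3093 and 2862 RPM under hypobaric hypoxia, which overlap. Of the miRNA reads they held 0.953%, 0.830% and 0.804% at normal pressure and 0.877%, 0.813% and 0.751% under hypobaric hypoxia, also overlapping. The mean was higher under hypobaric hypoxia in RPM (2933 and 3185) but lower as a share of miRNA reads (0.862% and 0.814%). miR-411-5p alone made up 53.2% to 62.9% of the members' sum and miR-379-5p, from the neighbouring hairpin, 14.9% to 19.2%. These are the 2 most abundant members, and 8 members held 91.1% to 94.3% of the sum. The other 60 members together gave 714, 653 and 754 RPM at normal pressure and 925, 853 and 812 RPM under hypobaric hypoxia, so that every hypobaric library was above every normal-pressure one, with a ratio of means of 1.22. As a share of miRNA reads the same sum was 0.209% ± 0.011 (SD, n = 3) and 0.221% ± 0.0067, and those values overlap.

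For the comparison of single miRNAs, limma was run on log2(RPM + 1) over the 475 miRNAs that averaged 1 RPM or more, and p-values were adjusted over all of them by the Benjamini-Hochberg method. Of the members, 40 were tested and 22 were below the filter. With limma, 0 of the 40 passed an adjusted p of 0.05, against 23 of all 475 (4.84%; 3.16% higher and 1.68% lower). Without adjustment, 7 members had a p below 0.05, all with a higher hypobaric mean, where 96 of all 475 (20.2%) did so in either direction and 68 (14.3%) in the higher one. Among the 7, miR-380-5p and miR-758-3p passed the filter only through their hypobaric level, so this count is a description. edgeR on whole reads recovered from the RPM steps called 0 members (25 of 475, 5.26%), and DESeq2 on the same reads called 3 (63 of 475, 13.3%; 6.74% higher), which were miR-410-3p, miR-323-3p and miR-496a-3p, all higher under hypobaric hypoxia. Shares of this size stand close to the background or below it.

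Most tested members nevertheless had a positive log2 change. It was above 0 in 36 of the 40, while the share over all tested miRNAs was 65.7%. The median log2 change was 0.32 for the tested members and 0.15 for all tested miRNAs, and 28 members lay above the latter. The 3 hypobaric libraries were all above the 3 normal-pressure ones for 12 members (30%; 19.2% of all tested miRNAs), and all below them for 0 members (7.58% of all). Of the tested members 4, miR-380-5p, miR-758-3p, miR-299a-3p and miR-494-5p, passed the filter only through their hypobaric level, so these counts are descriptions.

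**Figure D1:**
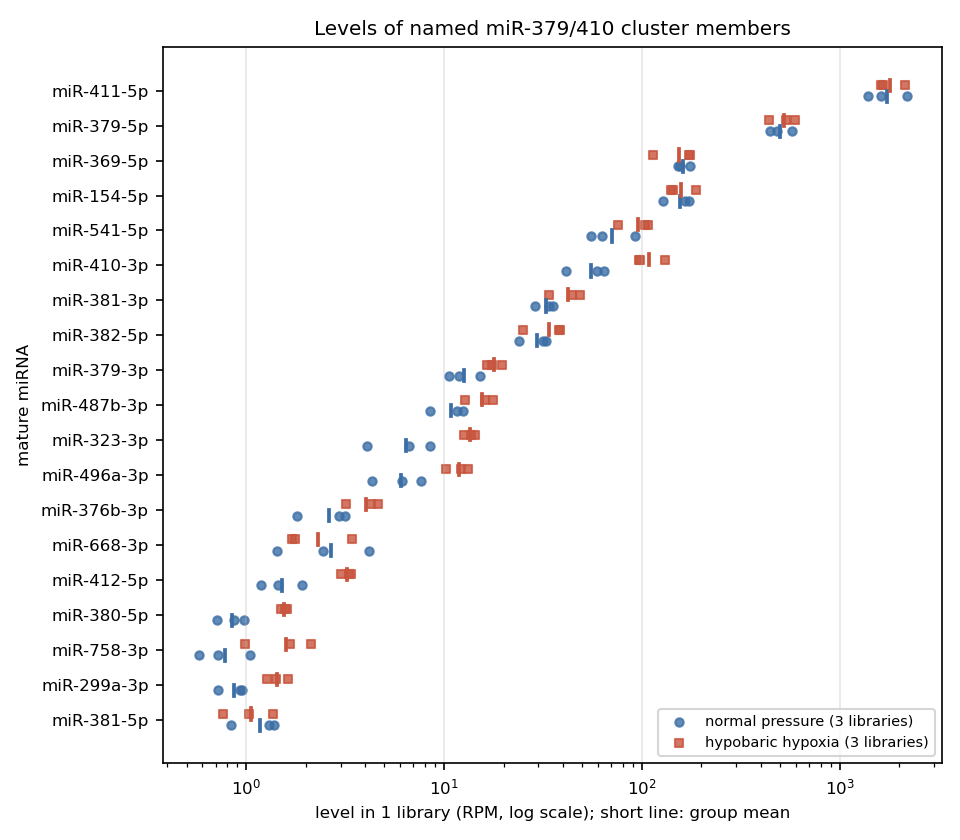
Levels in each library, in RPM on a log axis, for the members with the smallest p, the highest levels or the lowest log2 change; points are libraries and short lines are group means (n = 3). The hypobaric points lie above all normal-pressure points for miR-410-3p, miR-323-3p, miR-412-5p and miR-496a-3p, and overlap them for miR-411-5p and miR-379-5p.

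The member with the smallest p was miR-410-3p, from the last hairpin, which is in an exon of Mirg. It measured 64.6, 41.3 and 59.3 RPM at normal pressure and 98.4, 131 and 97.2 RPM under hypobaric hypoxia. The lowest hypobaric library was thus above the highest normal-pressure one. The means were 55.1 ± 12.2 and 109 ± 19.0 RPM (SD, n = 3), a ratio of 1.97, and the log2 change was 0.98 ± 0.24 (SE) with a limma adjusted p of 0.0555. Its adjusted p was 0.0796 with edgeR and 0.00331 with DESeq2, and 0.0394 with limma without both libraries that stand apart. Its share of the members' sum was 1.64% to 2.11% at normal pressure and 2.73% to 4.22% under hypobaric hypoxia.

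miR-323-3p comes from the start of the cluster, before Mirg, and was less abundant. Its levels were 8.48, 4.08 and 6.63 RPM at normal pressure and 13.6, 12.6 and 14.3 RPM under hypobaric hypoxia. The groups were separate, and the hypobaric libraries lay close together. The log2 change was 1.02 ± 0.25 (SE), with a limma adjusted p of 0.0594, or 0.0389 without the first normal-pressure library. With the count tools its adjusted p was 0.0837 (edgeR) and 0.00939 (DESeq2).

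miR-496a-3p measured 7.62, 4.34 and 6.15 RPM at normal pressure against 13.2, 12.2 and 10.3 RPM under hypobaric hypoxia. No library crossed between the groups, and the second normal-pressure library was the lowest, as for the members described above. The log2 change was 0.89 ± 0.23 (SE), with adjusted p-values of 0.0664 (limma), 0.0796 (edgeR) and 0.0115 (DESeq2).

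miR-412-5p lies less than 1 kb before miR-410 and was not far above the filter. Levels of 1.19, 1.91 and 1.44 RPM at normal pressure stood against 3.02, 3.38 and 3.30 RPM under hypobaric hypoxia. The second normal-pressure library was here the highest of its group, unlike for the 3 members above, and the groups were still separate. Its log2 change was 0.76 ± 0.20 (SE), with adjusted p-values of 0.0628 (limma), 0.156 (edgeR) and 0.0644 (DESeq2), and the limma value came to 0.04996 without both libraries that stand apart.

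The next 6 members by p had log2 changes between 0.38 and 0.53 and limma adjusted p-values from 0.183 to 0.281. miR-380-5p measured 0.715, 0.975 and 0.865 RPM and then 1.60, 1.57 and 1.51 RPM, separate groups at about the level of the filter. miR-379-3p, the scarcer arm of the first hairpin, was at 15.2, 10.6 and 12.0 RPM and then 17.6, 19.6 and 16.4 RPM, again without overlap. miR-758-3p, with 1.05, 0.576 and 0.721 RPM before 2.12, 1.67 and 0.989 RPM, did overlap, because the third hypobaric library was below the first normal-pressure one.

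miR-487b-3p measured 12.5, 8.47 and 11.6 RPM at normal pressure and 16.2, 17.7 and 12.8 RPM under hypobaric hypoxia. miR-376b-3p, of a family known in mouse and human brain for A-to-I editing within the seed, was at 3.14, 1.82 and 2.93 RPM and then 4.62, 4.29 and 3.20 RPM. In both, the third hypobaric library came nearest to the normal-pressure range without entering it. miR-299a-3p was at 0.953, 0.931 and 0.721 RPM against 1.27, 1.62 and 1.41 RPM, also separate. The remaining separate members were miR-329-3p, miR-300-3p and miR-543-5p, with log2 changes of 0.31 to 0.38 and limma adjusted p-values from 0.311 to 0.414.

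The most abundant members stood at nearly equal means in the groups. miR-411-5p, which ranked 37 of the 1300 miRNAs by mean level, was at 2177, 1389 and 1614 RPM at normal pressure and 2140, 1647 and 1612 RPM under hypobaric hypoxia. The first library was the highest in each group, and the ranges overlapped almost fully. Its log2 change was 0.073 ± 0.21 (SE) with a limma adjusted p of 0.836, and it turned negative under each of the 5 other scalings, at -0.057 to -0.18.

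miR-379-5p, studied in mouse liver for its part in lipid handling, was at 571, 479 and 446 RPM and then 536, 593 and 437 RPM, with a log2 change of 0.061 ± 0.19 (SE) and a limma adjusted p of 0.858. miR-154-5p was at 166, 127 and 173 RPM and then 188, 144 and 141 RPM. Both overlapped between groups, and their log2 changes were likewise negative under the 5 other scalings, at -0.068 to -0.19 and -0.11 to -0.22. miR-369-5p, the fourth member above 100 RPM, was at 155, 175 and 152 RPM against 176, 114 and 174 RPM, and the second hypobaric library was the lowest of the 6.

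Of the other members among the 8 most abundant, miR-541-5p measured 63.2, 55.6 and 92.4 RPM and then 75.5, 107 and 104 RPM, a log2 change of 0.45 ± 0.25 (SE) with a limma adjusted p of 0.339. For miR-381-3p the libraries gave 35.7, 28.9 and 34.0 RPM and then 48.6, 44.5 and 33.8 RPM. In each, a hypobaric library lay within the range at normal pressure. The last, miR-382-5p, was at 31.7, 24.0 and 32.7 RPM and then 38.7, 38.1 and 25.0 RPM, also overlapping. Over the 4 members of at least 100 RPM the median log2 change was 0.042, and it was 0.29 over the 15 of at least 10 RPM and 0.32 over the 25 between 1 and 10 RPM. The 25 include the 4 members that passed the filter only through their hypobaric level, a selection that can raise their median.

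Only 4 tested members had a negative log2 change. miR-668-3p was at 1.43, 4.17 and 2.45 RPM at normal pressure and at 1.70, 1.76 and 3.44 RPM under hypobaric hypoxia, a change of -0.13 ± 0.32 (SE), and the value without the second normal-pressure library was 0.15. miR-381-5p measured 1.38, 0.842 and 1.30 RPM against 1.04, 0.763 and 1.36 RPM. The others were miR-369-5p at -0.080 and miR-485-5p at -0.039, and in all 4 the groups overlapped.

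Several members known from other tissues were in the middle of this range. miR-134-5p, which in rat neurons limits dendritic spine size through Limk1, averaged 12.2 RPM in the normal-pressure group and 14.4 RPM in the hypobaric one, with a log2 change of 0.22 ± 0.23 (SE) and a limma adjusted p of 0.602. miR-369-3p, which in human cells binds the AU-rich element of the TNF mRNA, averaged 2.32 and 3.20 RPM with a log2 change of 0.39 ± 0.30. Both overlapped between groups.

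Along the cluster there was no single stretch that held the members with the smallest p. Among tested members with a mature sequence, the 22 before Mirg had a median log2 change of 0.34, with 8 separate groups (36.4%). The 15 inside Mirg had a median of 0.20, with 3 (20%). All of these were higher, where 19.2% of all tested miRNAs were separate and higher. Left out of these counts are miR-376c-3p, miR-485-5p and miR-487b-3p, which had no sequence. All 4 members that passed the filter only through their hypobaric level lie before Mirg. So does miR-323-3p, while miR-410-3p, miR-412-5p and miR-496a-3p lie inside it. Mirg also held miR-369-5p and miR-668-3p, both with negative values, and the hairpin of the uncounted miR-485-5p, at -0.039. The difference between these stretches was not tested.

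**Figure D2:**
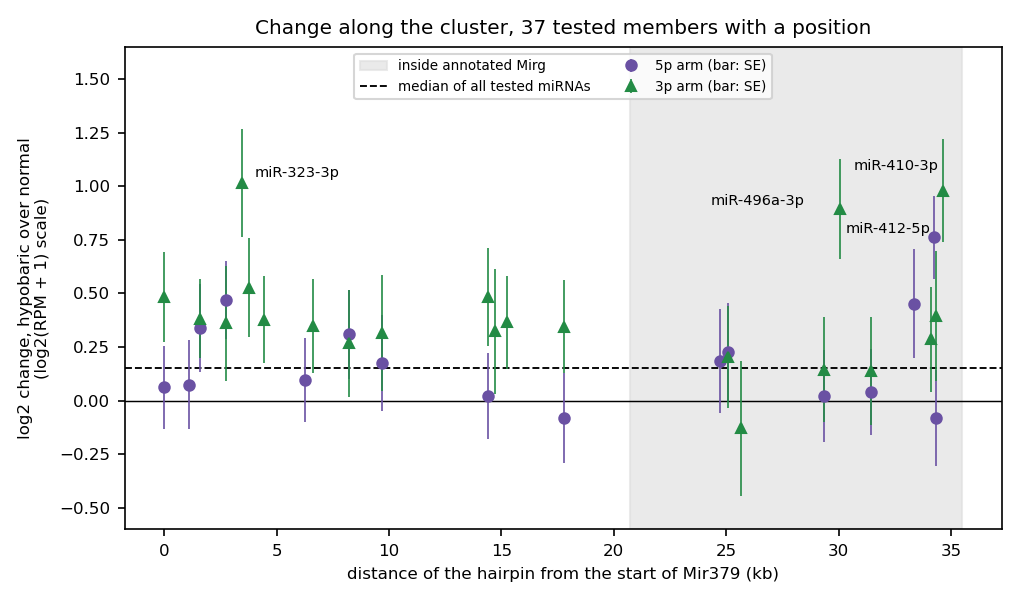
Log2 change (hypobaric over normal pressure, log2(RPM + 1) scale, bars SE) against the distance of the hairpin from the start of Mir379 in kb. Shown are the 37 tested members that could be placed through a mature sequence, without miR-376c-3p, miR-485-5p and miR-487b-3p. Circles are 5p arms, triangles 3p arms and the shaded part is Mirg. Members above and below the median of all tested miRNAs (0.15, dashed) occur along the whole span.

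The arms differed in their medians. The 23 tested 3p members had a median log2 change of 0.36 with 9 separate groups, and the 17 tested 5p members had a median of 0.096 with 3, all higher. Among all tested miRNAs 19.2% were separate and higher, and the count of 5p members is near that share. Both arms include members that passed the filter only through their hypobaric level. The arms were then compared within hairpins, since the scaling between libraries cancels in the ratio apart from the added 1 RPM, which matters for low arms such as miR-376b-5p. limma on log2 of 5p over 3p, after adding 1 RPM to each, covered 119 hairpins with a mean of at least 1 RPM in both arms, 11 of them in the cluster. It called 0 cluster hairpins and 3 of all 119 (2.52%), and at an unadjusted p below 0.05 it gave 0 cluster hairpins and 15 of all (12.6%). The ratio was closer to the 3p arm under hypobaric hypoxia in 8 of the 11, and in 48.7% of all hairpins.

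The lowest p-values came from Mir376b and Mir379. In Mir376b log2 of 5p over 3p was -0.77, -0.42 and -0.90 at normal pressure and -1.11, -1.24 and -1.11 under hypobaric hypoxia. In Mir379, where the 5p arm is far more abundant, it was 5.14, 5.38 and 5.11 and then 4.86, 4.85 and 4.65. Both were separate between groups, and the changes of -0.46 ± 0.24 and -0.42 ± 0.23 (SE) each had a limma adjusted p of 0.360. The other 9 cluster hairpins overlapped, with limma adjusted p-values from 0.415 to 0.957. The 5p arm was the more abundant in 6 of the 11 hairpins and the 3p arm in 5.

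**Figure D3:**
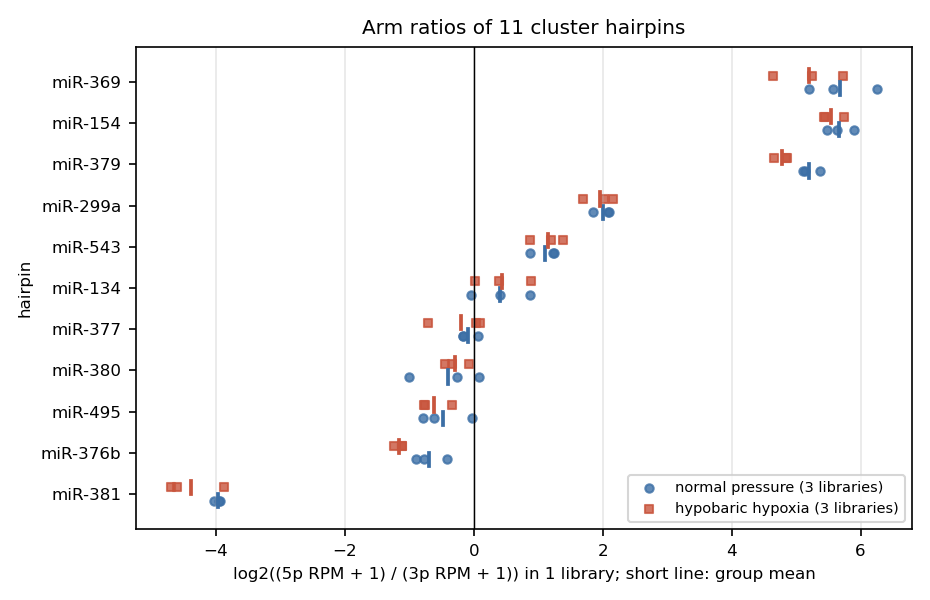
Log2 of 5p over 3p, from RPM + 1, in each library for the 11 cluster hairpins with both arms tested; points are libraries of the normal-pressure and hypobaric groups. Mir376b and Mir379 are the hairpins whose groups do not overlap, and the arm preference itself differs between hairpins by far more than between groups.

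Many 3p members also have similar letters just after the seed. The sequence ACANGG, chosen after the sequences were seen and searched on the mature strand alone, was in 11 of the 59 members with a sequence (18.6%), all of them 3p, and in 41 of 1620 other mouse miRNAs (2.53%). In miR-323-3p and miR-379-3p, printed above, it begins at base 7 and so overlaps the seed. The 7 tested members with it had a median log2 change of 0.39 (range 0.14 to 1.02), and the 30 tested members without it a median of 0.28 (-0.13 to 0.98). The 7 are all 3p arms, while the 30 also include 5p arms, and the tested arms differ in median (0.36 for 3p, 0.096 for 5p). This comparison therefore does not separate the letters from the arm. miR-410-3p, with the smallest p, does not carry these letters, and the ranges overlap.

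The 22 members below the filter averaged 0.0238 to 0.961 RPM, and 9 of them were at 0 in at least 1 library. Fitted without the filter, over all 1300 miRNAs, limma gave an adjusted p below 0.05 to 0 of the 62 members (22 of 1300 in all, 1.69%), and 8 members had an unadjusted p below 0.05 (137 of 1300, 10.5%). Of the 22, 5 are named here because their groups were separate, 4 higher and 1 lower, a choice made after their values were seen. Over all 825 miRNAs below the filter 3.39% were separate and higher and 4.36% separate and lower. Many of those are near 0, and of the 209 with a mean of at least 0.2 RPM, as all 4 higher members have, 7.66% were separate and higher.
miR-494-3p measured 0.476, 0.355 and 0.433 RPM at normal pressure and 1.23, 1.96 and 1.32 RPM under hypobaric hypoxia, which are 10, 8 and 9 reads against 26, 41 and 28. That is a ratio of means of 3.56, and the limma adjusted p without the filter was 0.150. miR-411-3p, with the seed of miR-379-3p, was at 0.619, 0.266 and 0.481 RPM against 1.23, 1.00 and 0.706 RPM. For both, the hypobaric libraries were all higher, but no adjusted p passed.

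miR-409-5p was at 0.667, 0 and 0.625 RPM and then 0.991, 2.77 and 0.706 RPM, a difference carried mostly by the second hypobaric library. miR-412-3p, the other arm of miR-412-5p, averaged 0.451 RPM in the normal-pressure group and 0.695 RPM in the hypobaric one. In the opposite direction, miR-679-3p measured 0.191, 0.443 and 0.288 RPM and then 0.047, 0.048 and 0.141 RPM, or 4, 10 and 6 reads against 1, 1 and 3. Its hypobaric level is at or under the 3-read floor, and its limma adjusted p without the filter was 0.316.

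The members' values also followed the library. Of the 40 tested members, 37 in the first hypobaric library, 29 in the second and 18 in the third lay above their own mean over the 6 libraries. At normal pressure the numbers were 11, 7 and 15. The first hypobaric library held the highest value of 23 members, and the second normal-pressure library the lowest of 21. The median deviation of members in the third hypobaric library was -0.019 on the log2 scale, against -0.0078 for all tested miRNAs there, while it was 0.31 and 0.24 in the other hypobaric libraries, where all tested miRNAs stood at 0.15 and 0.073. Without both libraries that stand apart, the median log2 change of the 42 members then tested was 0.41, against 0.11 for all miRNAs tested. There limma called 2 of the 42 members, miR-410-3p and miR-412-5p, and 49 of all 479 miRNAs tested. That is a smaller share of the members than of all miRNAs.

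**Figure D4:**
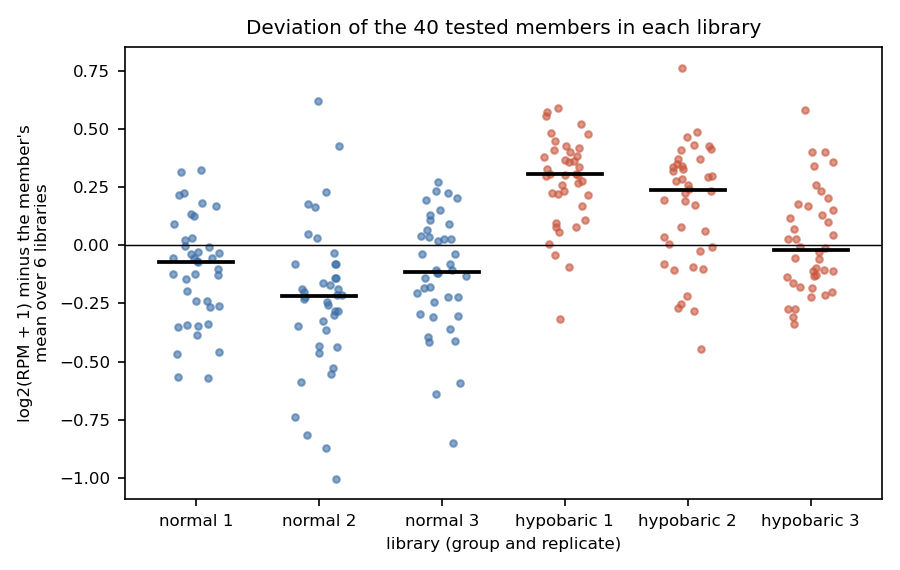
Deviation of each tested member from its own mean over the 6 libraries (log2 scale), by library; points are members and black lines their medians. Members in the first and second hypobaric libraries lie mostly above 0 (medians 0.31 and 0.24), while in the third they centre on -0.019.

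The size of the changes depended on the scaling. The deposited RPM use the library total, of which every hypobaric library had a higher miRNA share than any normal-pressure one. The part of this difference in the members' changes was not tested. Under 5 other scalings, the median of all tested miRNAs moved from 0.15 to between -0.050 and 0.049, and that of the tested members from 0.32 to between 0.10 and 0.21. The number of members above 0 was 25 to 31 of 40, where 42.1% to 55.8% of all tested miRNAs were above 0. Of the members, 25 were above 0 under the deposited and all other scalings. Relative to the median of all miRNAs the members' median stood at 0.17 as deposited and at 0.11 to 0.16 under the other scalings.

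**Figure D5:**
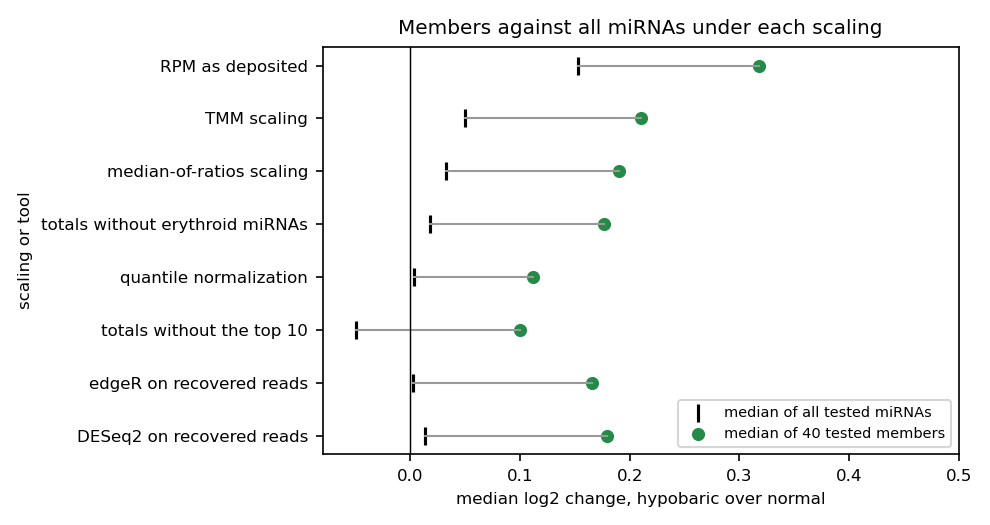
Median log2 change, hypobaric over normal pressure, of the tested members (circles) and of all tested miRNAs (ticks) for each scaling or tool. The circle is to the right of the tick in each line, and both move towards 0 when the deposited RPM are rescaled.

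Some lists of marker miRNAs of other cells differed between the groups in their summed level. The 7 erythroid miRNAs, none of them at 0 throughout, summed to 726 to 1577 RPM at normal pressure and 9459 to 15085 RPM under hypobaric hypoxia, and 4 of the 6 tested were higher by limma. Scaling to miRNA totals without this list left 31 of 40 members above 0, with a median of 0.18 against 0.018 for all tested miRNAs. This scaling replaces the deposited library total as well as removing the list. Its lower values can therefore not be assigned to the erythroid miRNAs. The 16 neural miRNAs, a class named because the cluster is well known in brain, summed to 345 to 381 RPM and then 293 to 345 RPM, and 0 of the 10 tested passed with limma, with 1 at an unadjusted p below 0.05, 0 by edgeR and 1 by DESeq2. The 7 leukocyte miRNAs summed to 586 to 809 RPM and then 938 to 1081 RPM, but 3 of the 6 tested had a positive log2 change and 3 a negative one, with a median of 0.028. None of these 6 passed by limma (0, with 1 at an unadjusted p below 0.05, 0 by edgeR and 1 by DESeq2). Both miR-202 arms were higher by limma. The stromal list summed to 3456 to 4492 RPM and then 4141 to 5827 RPM, with 1 of its 6 miRNAs higher and 1 lower. Its log2 changes ran from -7.25 to 6.54, which are also the lowest and highest of all tested miRNAs. Whether reads that match several miRNAs took different names in the groups was not tested, so these calls give no measure of stromal cells. The ratio of summed means, hypobaric over normal pressure, was 1.01 for smooth muscle, 1.03 for epithelial, 0.979 for striated muscle and 1.11 for endothelial miRNAs. The part of erythroid, leukocyte, stromal and gonadal cells in the members' values was not tested.

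The other miRNAs of the Dlk1-Dio3 domain, which lie outside the cluster, numbered 27, of which 12 were tested, with a median log2 change of 0.14. The most abundant, miR-127-3p, encoded opposite Rtl1, averaged 4368 ± 316 and 5034 ± 566 RPM (SD, n = 3), more than the summed cluster in each group, with a limma adjusted p of 0.438. Their single call was miR-434-3p, with 74.5, 78.9 and 73.3 RPM at normal pressure and 136, 141 and 190 RPM under hypobaric hypoxia. Its log2 change of 1.02 ± 0.21 (SE, limma adjusted p = 0.0213) is of the size seen in miR-410-3p and miR-323-3p, whose standard errors are larger. The call was lost with each of the 5 other scalings (limma adjusted p = 0.0547 to 0.0835), with edgeR (0.0819) and with the replicate number as a block (limma, 0.0505). It was also lost without the first or the third normal-pressure library (limma adjusted p = 0.0662 and 0.0754) or the first or second hypobaric one (0.0665 and 0.0696). It held with DESeq2 (adjusted p = 0.00309). With limma it held without the second normal-pressure library (0.0445), the third hypobaric one (0.0384) or both, the libraries that stand apart (0.0230).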

How the data were processed

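The deposited table gives 1 value per miRNA and library for 1300 miRNAs, 1025 annotated and 275 predicted. Its values, which the authors named TPM, are RPM, reads scaled to 1000000 reads of a library total: with a tolerance of 0.0005 RPM, 100% of values in each library were whole reads of 1 implied total. The sources used here do not give which reads that total includes. Per the labels' protocols, 1.3 µg of RNA was size-selected on a gel and read as single reads of 50 bases. Bowtie2, DESeq2 and the build GRCm38.p6 are named, per the submitters' processing notes, without role or version. The handling of reads that match several miRNAs was likewise not stated.

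Levels were compared with limma 3.58.1 in R 4.3.3, with a variance trend, two-sided, on log2(RPM + 1). This scale understates changes of low miRNAs. miRNAs averaging 1 RPM or more over the 6 libraries entered, and p-values were adjusted by the Benjamini-Hochberg method. The recovered whole reads were tested as alternatives with edgeR 4.0.16, which called 25 of 475 miRNAs, and DESeq2 1.42.0, which called 63. Other alternatives were pseudocounts of 0.5 and 0.1, no filter or 10 RPM, no trend, annotated miRNAs alone, other scalings (median of ratios, TMM, quantile, totals without the 10 most abundant), the replicate number as a block, and leaving out each library. Leaving out both libraries that stand apart and scaling without erythroid miRNAs were chosen after seeing the data. A separate group means that all 3 libraries of a group lie on the same side of all 3 of the other.

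The members and lists were chosen with earlier results of these data known. Values in each library are given for the 8 most abundant members, the 10 with the smallest p and the 3 with the lowest log2 change; others named were chosen after their values were seen. Positions are from GENCODE vM21 and RefSeq, counted from 1. The fits were tested on simulated data. Tables and figures were made in Python 3.11.15 with numpy 2.4.6, pandas 2.3.3 and matplotlib 3.10.9.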

Additional observations from a re-analysis of the deposited data

How the results depend on the processing

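Of the miRNA calls (23), DESeq2 gave 63, leaving out both libraries that stand apart 49, and leaving out 1 library 10 to 34. Calls among the members (0 of 40) numbered 1 of 15 at a filter of 10 RPM (miR-410-3p, limma adjusted p = 0.0336), with 19 of all 250 miRNAs. They were 3 of 40 with DESeq2 (63 of all 475) and 2 of 42 without both libraries that stand apart (49 of all 479). On leaving out 1 library they were 0 to 1. The 1 was miR-323-3p, without the first normal-pressure library (1 of 42 members, 21 of all 477). Counting both directions, the share of members was the lower in each of these settings. Calls among the other Dlk1-Dio3 miRNAs (1) came to 0 with median-of-ratios, TMM, quantile and top-10-free scaling, the erythroid-free scaling, edgeR and the replicate block, and to 0 to 1 on leaving out 1 library. The members' median (0.32) was 0.11 with quantile normalization and 0.10 with totals without the 10 most abundant miRNAs. Signs turned for members near 0. In the order median of ratios, TMM, quantile, top-10-free, edgeR, DESeq2 and erythroid-free, the log2 changes were -0.078, -0.057, -0.10, -0.18, -0.13, -0.11 and -0.093 for miR-411-5p, -0.089, -0.068, -0.11, -0.19, -0.13, -0.12 and -0.10 for miR-379-5p, and -0.13, -0.11, -0.11, -0.22, -0.16, -0.15 and -0.14 for miR-154-5p. miR-382-5p was at -0.057 with top-10-free totals, and miR-154-5p at -0.040 without both libraries that stand apart. On leaving out 1 library, the log2 change ran from -0.071 to 0.25 for miR-411-5p, -0.036 to 0.18 for miR-379-5p, -0.11 to 0.11 for miR-154-5p, -0.40 to 0.15 for miR-668-3p, -0.19 to 0.12 for miR-369-5p and -0.20 to 0.023 for miR-381-5p. The causes were not tested. Higher calls made up 65.2% of all calls as deposited and 38.7% to 52.2% under the 4 planned scalings. Same-numbered libraries correlated at 0.346, -0.469 and -0.288 in their deviations from group means. With 3 libraries per group these deviations sum to 0, so the correlations cannot decide whether replicate numbers pair the libraries. With the replicate block 0 members and 23 miRNAs passed. No arm ratio of a cluster hairpin passed under any alternative.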
